A study of Homo sapiens with 6 samples.

Results

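The genes described here lie on chromosome 13 and were followed in order along its long arm in DMS53 cells, an established human small cell lung cancer (SCLC) line with neuroendocrine features. The members were selected on their summed counts: a gene was included when its counts came to at least 60 over the 6 libraries, which 309 of the 1458 chromosome 13 genes in the files did. The summed counts do not use the direction of change between the groups. The 3 control cultures carried the empty lentiviral vector pLenti-C-mGFP-P2A-Puro and the 3 OC2-OE cultures a lentiviral vector for constitutive expression of mGFP-tagged ONECUT2 (OC2), a one-cut homeobox transcription factor. Both groups were therefore transduced and puromycin-selected cultures of the same line, and the study calls the replicates of a group independent experiments. Whether each came from its own transduction is not stated, so p-values measure the spread between these cultures, which may be technical. The comparison asks how the chromosome 13 genes differed in transcript level when OC2 was enforced, and whether the differences followed position along the arm or differed from the other autosomes. Just under the threshold were TRPC4 with 54 counts, DGKZP1 with 56 and LMO7-AS1 with 57, and just above it ENSG00000267868 with 62 and ENSG00000287887 and LINC02341 with 63 each. Of the members, 10 had under 30 counts in the control libraries together and 13 had under 30 in the OC2-OE libraries, so these were members mainly through the other group. All 309 members passed the filter on low counts and were tested.

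Chromosome 13 is acrocentric. Its short arm holds repeated ribosomal RNA genes, and its single-copy genes lie on the long arm, 13q. The arm carries the tumour suppressor genes RB1, which restrains entry into S phase and is commonly lost in SCLC, and BRCA2, which acts in repair of DNA by homologous recombination. It also carries DLEU2, the noncoding host transcript of 2 microRNAs in a region that is often deleted in chronic lymphocytic leukaemia. Members of the one-cut family bind DNA elements with ATCAAT or ATCGAT at their core.

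The stretches below are shown because they lie before the starts of the gene with the largest rise (CPB2), of a gene in a block of neighbours that rose together (SETDB2) and of a gene of cell division that fell (DIAPH3). Each was picked because it holds the letters described above. They are RefSeq sequences on GRCh38.p14, printed on the strand of the gene and ending at the last base before its start, with ATCAAT or its reverse complement ATTGAT in capitals.
CPB2, minus strand, chr13:46105034-46105283: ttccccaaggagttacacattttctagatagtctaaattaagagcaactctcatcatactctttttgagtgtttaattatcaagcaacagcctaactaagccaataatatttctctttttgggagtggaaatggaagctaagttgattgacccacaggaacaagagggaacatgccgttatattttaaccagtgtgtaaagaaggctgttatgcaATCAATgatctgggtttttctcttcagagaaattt
SETDB2, plus strand, chr13:49444065-49444273: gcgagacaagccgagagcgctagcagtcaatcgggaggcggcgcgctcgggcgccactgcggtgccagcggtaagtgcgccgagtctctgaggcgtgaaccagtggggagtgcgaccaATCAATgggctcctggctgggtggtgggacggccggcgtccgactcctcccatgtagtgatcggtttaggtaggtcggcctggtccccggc
DIAPH3, minus strand, chr13:60163929-60164178: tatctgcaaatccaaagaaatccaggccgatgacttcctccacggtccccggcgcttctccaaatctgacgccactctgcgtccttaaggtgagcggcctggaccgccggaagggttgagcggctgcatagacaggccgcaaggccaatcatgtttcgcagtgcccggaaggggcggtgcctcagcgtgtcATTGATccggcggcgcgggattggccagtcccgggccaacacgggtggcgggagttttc
The SETDB2 stretch of 209 bases is the whole interval between that gene and CAB39L, which starts on the opposite strand. The match begins 35 bases before the start of CPB2, 91 bases before that of SETDB2 and 59 bases before that of DIAPH3. The letters ATCAAT and ATCGAT were searched on both strands in the 250 bases before each RefSeq start, with 242 members matched to the table. They occurred before 5 of 50 matched members called higher, 8 of 90 called lower and 9 of 102 not called, and in 6.19% of the 35116 promoters of the table. Of the block of neighbours around SETDB2, 5 genes are in the table and SETDB2 alone had a match, and of 13 genes in the table from the cell division list that were called lower, DIAPH3 and RNASEH2B had one and 11 did not. A member with several starts counted once, so its chance to hold a match was larger than that of a single promoter. A match is a run of letters and not a measured binding site.

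The libraries held 16533284 to 19099337 counts, and ONECUT2 had 394 to 465 counts in control and 68853 to 74031 in OC2-OE. Genes that mark neuroendocrine cells were expressed in every library. Over 7 genes, the summed level was 4907 to 4958 CPM (a count scaled to the size of its library) in control and 3233 to 3295 in OC2-OE. CALCA made up most of this sum (a mean of 3774 against 2630 CPM). CHGA was higher in OC2-OE (72.2 against 150 CPM), and the others were lower, from CHGB (122 against 111 CPM) to GRP (132 against 6.24 CPM). Of 7 immune markers, CD3E was at 0 and 5 were under 1 CPM, and the sum was 3.85 to 4.54 CPM in control and 7.56 to 9.06 in OC2-OE. The fibroblast sum was 21.2 to 23.9 against 28.1 to 32.1 CPM with 4 of 6 genes under 1 CPM, and the endothelial sum was at least 12.7 CPM in control and at most 4.73 CPM in OC2-OE, with 1 of 4 under 1 CPM. The lower endothelial sum came from KDR (a mean of 10.6 against 1.55 CPM) and CDH5 (1.01 against 0.055 CPM), while PECAM1 (2.39 against 2.46 CPM) and VWF (0.020 against 0.31 CPM) were not lower. The part of these differences in the results for chromosome 13 was not tested.

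In OC2-OE, more chromosome 13 genes were lower than higher. A total of 106 of the 309 members (34.3%) were lower and 63 (20.4%) higher at an adjusted p under 0.001 by the quasi-likelihood test of edgeR, with Benjamini-Hochberg adjustment over 17307 genes. Over all tested genes 28.7% were lower and 27.8% higher, so the excess of lower members was matched by a deficit of higher ones. The share called in either direction, 54.7% of members, was near the background of 56.5%. The groups did not overlap for 230 members (74.4%), against 73.2% of all tested genes, and all 169 called members were among them. Since cells and RNA per cell were not counted, a level here is a share of the RNA of a culture.

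The median log2 fold change of the members was -0.12, against 0.01 over the tested genes of the other autosomes. Both medians depend on the normalization: they were -0.0695 and 0.0577 with library size only and -0.0775 and 0.0498 with upper-quartile normalization, while their difference was -0.13 in each. The quartiles were -0.56 and 0.32, against -0.36 and 0.40 over those genes. A fold change of at least 2 among called members was found for 65, of which 47 were lower and 18 higher. The background is 17.3% of all tested genes, 9.04% lower and 8.29% higher. Of the 22 autosomes, chromosome 13 had the lowest median, followed by chromosome 21 at -0.11 and chromosome 18 at -0.07, and chromosome 6 had the highest at 0.08. It also had the lowest share of higher genes, with 20.99% on chromosome 21 next to it. Its share of lower genes was second to that of chromosome 18 (36.1%) and close to those of chromosome 10 (33.4%) and chromosome 21 (33.3%). These ranks are a description with no test, and the neighbours in the order lie close to chromosome 13.

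**Figure D1:**
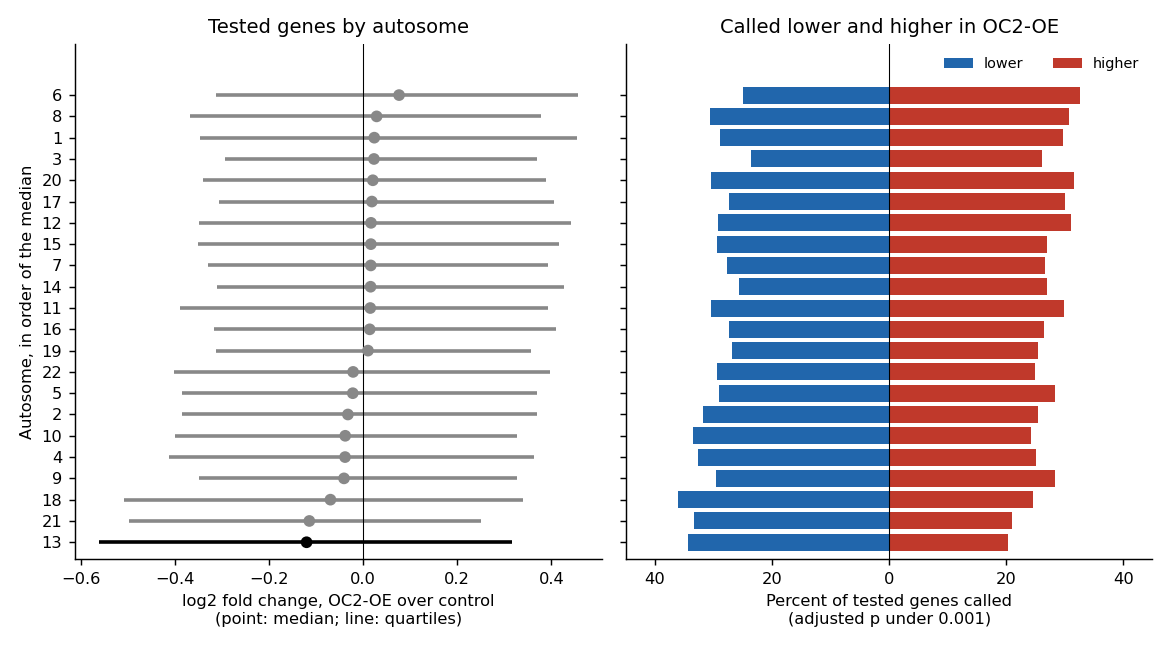
Left, the median (point) and quartiles (line) of the log2 fold change of OC2-OE over control for the tested genes of each autosome, in order of the median, with chromosome 13 in black. Right, the percent of tested genes called lower (blue, to the left) and higher (red, to the right); chromosome 13 lies at the bottom with a median of -0.12, 34.3% lower and 20.4% higher.

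The shift was present in each library. The members took 1.14%, 1.14% and 1.13% of the counts in control replicates 1, 2 and 3 and 1.00%, 1.01% and 1.00% in the OC2-OE replicates. The mean was 1.14% ± 0.00392 (SD, n = 3) in control and 1.01% ± 0.00140 (SD, n = 3) in OC2-OE. Without TPT1, HSPH1 and KCTD12, the 3 members with the most counts, the means were 0.964% and 0.904%. The median log2 ratio of the members to the control mean was 0.025, 0.0024 and -0.017 in control and -0.12, -0.10 and -0.09 in OC2-OE, while the other autosomes stayed at 0.01 in each OC2-OE library. No OC2-OE library overlapped a control library on either measure.

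**Figure D2:**
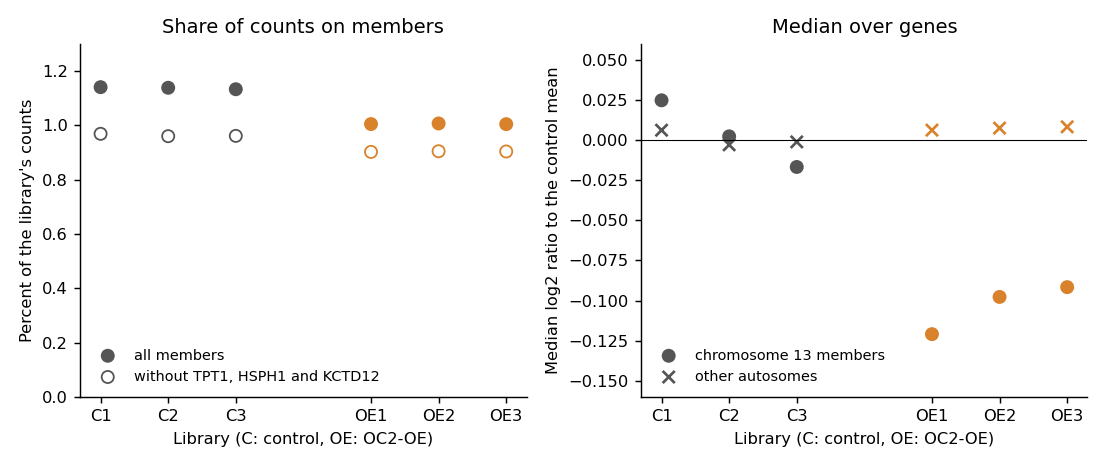
Left, the percent of each library's counts on chromosome 13 members (filled) and the same without TPT1, HSPH1 and KCTD12 (open). Right, the median log2 ratio to the control mean over members (circles) and over the other autosomes (crosses); the 3 OC2-OE libraries lie between -0.12 and -0.09 for the members and at 0.01 for the other autosomes.

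More members were lower than higher in each class of gene with a type in the annotation and over 20 members. This also held at each level of expression, but the level under 1 CPM cannot decide it, as set out below. Of the 235 protein-coding members, 89 (37.9%) were lower and 53 (22.6%) higher, against 32.0% and 30.3% of the protein-coding genes of the other autosomes. Of the 52 long noncoding or antisense members, 14 (26.9%) were lower and 6 (11.5%) higher, against 16.4% and 18.4% of such genes elsewhere. Their median log2 fold change was -0.13, against 0.12 elsewhere. Among the 62 members with a mean of at least 50 CPM, 34 (54.8%) were lower and 13 (20.97%) higher, against 42.3% and 31.4% on the other autosomes. Among the 142 members from 5 to under 50 CPM, 45 (31.7%) were lower and 32 (22.5%) higher, against 28.2% and 32.3% on the other autosomes. At this level the higher share lay further from that of the other autosomes than the lower share did. Among the 69 members from 1 to under 5 CPM, 19 (27.5%) were lower and 13 (18.8%) higher, against 16.998% and 21.2% on the other autosomes. Among the 4 levels, the 36 members under 1 CPM were called least often (36.1%), at a depth of few counts. Of these, 8 (22.2%) were lower and 5 (13.9%) higher. Called genes here included noncoding members that passed the count threshold mainly through a single group. LINC02341 had 8 counts in control and 55 in OC2-OE, and LINC00598 had 75 against 22. The direction of such genes is tied to their membership. The balance at this level therefore cannot decide whether lower members prevailed, and the noncoding class shares this limit in part. On the other autosomes 24.6% of genes at this level were called, 13.3% lower and 11.4% higher.

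Along the arm the balance of lower and higher members varied between bins, a description with no test. The background over all tested genes was 28.7% lower and 27.8% higher. The members were placed in bins of 10 Mb by their start. The bin from 20 to 30 Mb had 61 members, of which 30 were lower and 13 higher, with a median log2 fold change of -0.22. Its first 5 Mb had 11 higher and 10 lower with a median of 0.09, and its later 5 Mb 2 higher and 20 lower with a median of -0.35. The bin from 30 to 40 Mb had 15 lower and 8 higher among 38 members, with a median of -0.10. It too differed inside, with 1 higher and 11 lower and a median of -0.48 from 30 to 35 Mb, but 7 higher and 4 lower and a median of 0.18 from 35 to 40 Mb. From 40 to 50 Mb, the bin with the most members (63), 11 (17.5%) were lower and 16 (25.4%) higher, with a median of -0.0039. Its higher share was not above the background of 27.8%, while its lower share was below 28.7%. The sign of this median changed with the normalization and without control replicate 2 (0.02) or OC2-OE replicate 1 (0.02). Split into bins of 5 Mb, its first part had a median of -0.05 and its later part, from 45 to 50 Mb, of 0.15. From 50 to 60 Mb 8 of 28 members were lower and 6 higher, with a median of -0.18. The gene-poor bins from 60 to 70 Mb and from 80 to 90 Mb held 7 and 5 members, with 2 lower and 0 higher in each by edgeR, and 0 higher also by limma, by DESeq2 and at an unadjusted p under 0.05. From 80 to 90 Mb the lower members included MIR4500HG, a member mainly through its control counts.

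The bin from 70 to 80 Mb was the most one-sided of the larger bins, with 11 members lower and 1 higher among 24 and a median of -0.23. From 90 to 100 Mb 12 of 29 were lower and 5 higher, with a median of -0.26, and from 100 to 110 Mb 7 of 17 were lower and 3 higher, with a median of -0.07. At both ends of the arm the counts of higher members exceeded those of lower ones. The first bin, from 10 to 20 Mb, had 2 higher and 1 lower of only 5 members (median 0.09). The last, from 110 to 120 Mb, had 9 higher (28.1%) and 7 lower (21.9%) of 32, with a median of 0.06. Beside all tested genes (27.8% higher, 28.7% lower), its higher share was near the background and its lower share below it.

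**Figure D3:**
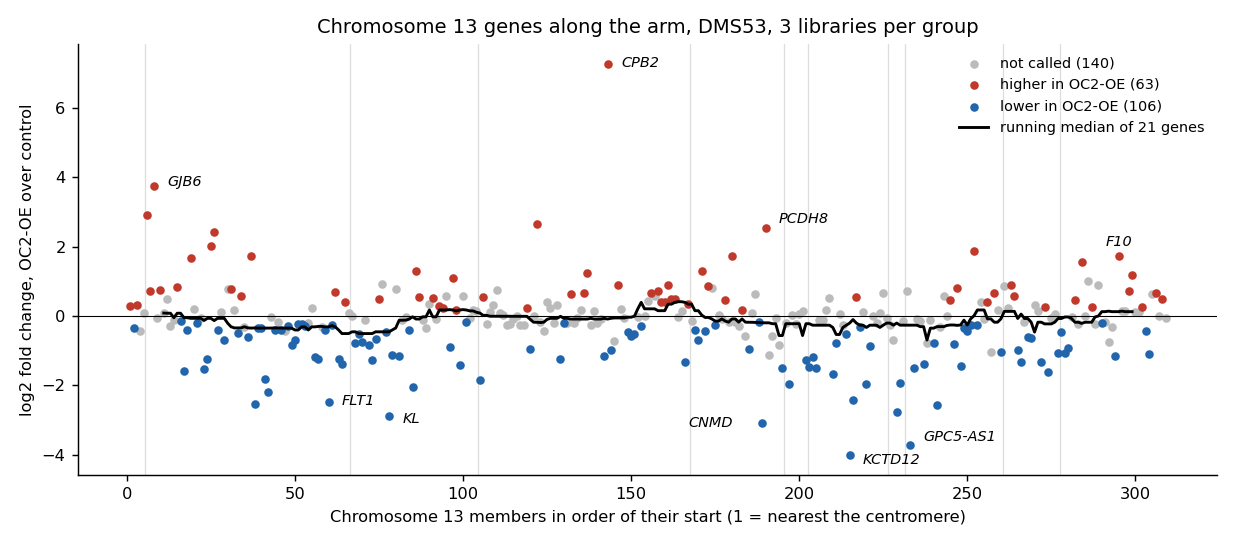
The log2 fold change of OC2-OE over control for each of the 309 members in order of start, with members called higher in red (63), lower in blue (106) and not called in grey (140), and the running median of 21 neighbours in black. Vertical lines part the bins of 10 Mb; the running median lies below 0 in most of the arm, with its highest values near the middle.

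In a running median over 21 neighbours, 78.9% of the 289 windows of chromosome 13 lay below 0, second among autosomes to chromosome 21 with 81.0%. The lowest window, with a median of -0.69, ran from PTMAP5 at 81689911 past SOX21 to RAP2A at 97434169, in which 9 genes were lower and 2 higher. It was the 6th lowest among the lowest windows of the autosomes, with chromosome 7 at -0.96. The highest, at 0.42, ran from RCBTB2 at 48488963 past KPNA3 to RPS4XP16 at 51454164, in which 10 were higher and 4 lower. The highest windows of the other autosomes ranged from 0.13 on chromosome 21 to 1.31 on chromosome 11. Neighbouring windows share genes. Direct neighbours had the same sign in 173 of 308 pairs (56.2%), close to the 55.7% of pairs on the other autosomes. Where both neighbours were called, 61 of 98 pairs (62.2%) moved the same way, against 60.7% elsewhere. Both shares were slightly above those of the other autosomes, and the difference was not tested.

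The longest stretch of 1 sign held 17 genes from AMER2 to PDX1 (chr13:25161679-27926313), all with a log2 fold change below 0, of which 13 were called lower. The longest such stretches on other autosomes held 19 genes on chromosome 6, 18 on chromosome 3 and 17 on chromosome 8. The stretch on chromosome 13 includes 2 unbroken runs of called genes. The first was AMER2, MTMR6, NUP58, ATP8A2 and SHISA2, and the second RPL21, RASL11A, GTF3A, MTIF3, LNX2 and POLR1D, from -0.82 to -0.22 on the log2 scale. In the first run, SHISA2, which encodes a membrane protein that restrains maturation of FGF and Wnt receptors, had 367, 316 and 335 counts in control and 72, 82 and 83 in OC2-OE. Its level fell from 19.7 ± 0.86 to 4.35 ± 0.52 CPM (SD, n = 3). The log2 fold change was -2.18 (SE 0.10), with an adjusted p of 6.28e-40 by edgeR's quasi-likelihood test. ATP8A2, a phospholipid flippase of neurons, had 295, 263 and 222 counts in control and 80, 81 and 72 in OC2-OE, a log2 fold change of -1.82. In the second run GTF3A, the transcription factor of the 5S ribosomal RNA genes, fell from 169 ± 5.27 to 104 ± 4.43 CPM (SD, n = 3; log2 fold change -0.70).

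A block of 6 neighbours in 13q14 rose. CDADC1, CAB39L, SETDB2, PHF11, RCBTB1 and EBPL follow each other from 49247925 to 49691486 and were called higher with log2 fold changes from 0.40 to 0.89. Unbroken runs of called genes were sought on chromosome 13 only. A longer one stands on chromosome 7, with 10 genes from POLR1F to SP4, all called lower. PHF11, a zinc finger protein of the PHD type, had 133, 103 and 101 counts in control and 233, 218 and 211 in OC2-OE, and its level rose from 6.49 ± 0.54 to 12.1 ± 0.50 CPM (SD, n = 3). SETDB2, a histone methyltransferase homologue, stood close to the threshold, with 145, 108 and 95 against 187, 146 and 158 counts and an adjusted p of 0.000984 by edgeR's quasi-likelihood test. CDADC1, named for a cytidine deaminase domain, had 133, 113 and 96 counts against 197, 172 and 233. All 6 genes had separate groups.

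Around this block stand RB1 and DLEU2, both lower. RB1 had 1407, 1206 and 1250 counts in control and 1186, 1079 and 1106 in OC2-OE. Its level was 74.7 ± 2.45 CPM in control and 61.6 ± 0.82 CPM in OC2-OE (SD, n = 3), a log2 fold change of -0.28 (SE 0.04) and an adjusted p of 3.86e-09 by edgeR's quasi-likelihood test. RB1 transcripts were present in every library, and the groups did not overlap. DLEU2 had 133, 114 and 106 counts in control and 50, 41 and 57 in OC2-OE, a log2 fold change of -1.33. Of the 20 members on the list of the 13q14 region, 8 were higher and 7 lower, with a median of -0.02. Over all tested genes 27.8% were higher and 28.7% lower. Both shares of the list were above these, a difference that was not tested.

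DLEU2 hosts the microRNAs miR-15a and miR-16, whose mature RefSeq sequences are shown because both lie inside the gene that fell, on its strand. The seed, bases 2 to 8, is in capitals.
hsa-miR-15a-5p, minus strand, chr13:50049167-50049188: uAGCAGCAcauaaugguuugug
hsa-miR-16-5p, minus strand, chr13:50049027-50049048: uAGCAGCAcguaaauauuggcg
The seeds are the same. Mature microRNAs were not measured in these poly(A) libraries, so the values for DLEU2 concern the host transcript. MIR17HG, the host of another microRNA cluster further along the arm, had 16, 4 and 6 counts in control and 18, 15 and 13 in OC2-OE and was not called (adjusted p of 0.0847, edgeR's quasi-likelihood test).

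Opposite-strand neighbours were compared next, since a pair whose starts lie close together shares 1 stretch of DNA between them. Starts lay within 1000 bases of each other in 40 such pairs, of which 27 (67.5%) had the same sign and 13 did not, against 57.9% of 1823 such pairs on the other autosomes. Both genes were called in 8 pairs and moved the same way in all 8, against 377 of 541 (69.7%) elsewhere, a difference that was not tested. Of the 8, 6 were lower (among them SKA3 and MRPL57, ENSG00000289860 and FGF9, LNX2 and POLR1D, HMGB1 and USPL1, and MZT1 and BORA) and 2 higher (CAB39L and SETDB2, LINC00571 and UFM1). The starts of MZT1 and BORA are 120 bases apart, and their log2 fold changes were -1.18 and -1.48. In 35 pairs the genes overlapped on opposite strands, and of the 16 with both called 11 moved the same way and 5 the opposite way, against 63.1% the same way elsewhere. The pairs that moved apart included CPB2-AS1 and CPB2, LINC02334 and LINC00571, DLEU2 and TRIM13, and INTS6 and INTS6-AS1. Counting used the strand, per the file headers, and the share of reads assigned to the wrong strand of an overlapping pair was not measured.

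The groups of genes by role, drawn up for this chromosome, differed in how their members moved. These groups are described by counts and medians beside the whole-chromosome values above. The background for each group is the share of all tested genes, 28.7% lower and 27.8% higher.

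Of the genes of cell division and genome maintenance, 15 were lower in OC2-OE, 0 higher and 10 not called. All 25 genes of the list were members, with a median log2 fold change of -0.41, and over all tested genes 28.7% were lower. Beside the 0 higher calls by edgeR's quasi-likelihood test, the 3 members above 0 were KATNAL1 (0.01), ERCC5 (0.14) and CUL4A (0.14), and CUL4A had an adjusted p of 0.0118. CUL4A was the 1 member higher at an unadjusted p under 0.05, and limma and DESeq2 also called 0 higher. SKA3, a subunit of the complex that ties kinetochores to microtubules, had 660, 584 and 564 counts in control and 232, 185 and 217 in OC2-OE. Its level fell from 35.0 ± 0.33 to 11.6 ± 0.78 CPM (SD, n = 3), or -1.59 as a log2 fold change. BORA, an activator of the mitotic kinase Aurora A, had 279, 259 and 252 against 112, 71 and 116 counts, and DIAPH3, a formin that builds actin filaments, had 465, 379 and 400 against 159, 143 and 162 counts.

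BRCA2 had 1308, 1178 and 1213 counts in control and 531, 554 and 549 in OC2-OE. Its level fell from 71.7 ± 2.54 to 29.9 ± 2.14 CPM (SD, n = 3). The log2 fold change was -1.26 (SE 0.05), with an adjusted p of 6.25e-47 by edgeR's quasi-likelihood test. RFC3, a subunit of the clamp loader of DNA replication, fell from 87.3 ± 3.64 to 39.3 ± 2.48 CPM, and CKAP2, a protein of the mitotic spindle, from 214 ± 6.15 to 110 ± 1.85 CPM (SD, n = 3). No control library of these genes overlapped an OC2-OE library. Without the list, the median log2 fold change of the remaining 284 members was -0.09, against -0.12 with it.

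**Figure D4:**
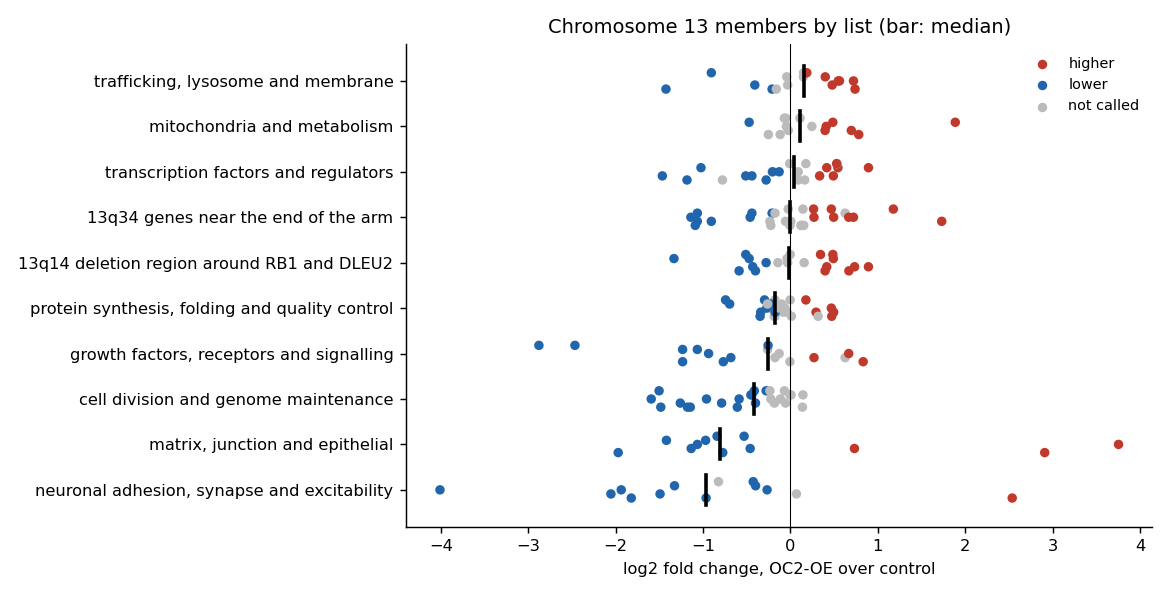
The log2 fold change of OC2-OE over control of the members of each of 10 lists, called higher (red), lower (blue) or not called (grey), with the median of each list as a black bar. The cell division list has 15 blue and no red points, while the lists of trafficking and of mitochondria have medians above 0 (0.15 and 0.11).

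Of the 20 genes on the list of neuronal adhesion, synapse and excitability 13 were members. Of these, 10 (76.9%) were lower and 1 (7.69%) higher, with a median log2 fold change of -0.97. GPC6, with 67 counts in control and 25 in OC2-OE, was a member mainly through control. Without it 9 of 12 were lower and 1 higher, with a median of -0.89. KCTD12, an auxiliary subunit of GABA-B receptors, had the largest fall of any member and is among the 3 members with the most counts. It had 11209, 10075 and 9703 counts in control and 734, 619 and 681 in OC2-OE. Its level fell from 600 ± 2.73 to 37.1 ± 1.31 CPM (SD, n = 3), 16.1-fold lower, or -4.01 as a log2 fold change (SE 0.03) and an adjusted p of 1.14e-123 by edgeR's quasi-likelihood test. DCLK1, a microtubule-binding kinase, had 1420, 1225 and 1194 counts against 347, 340 and 290, a log2 fold change of -2.06. SLITRK5, a transmembrane protein of synapses, had 339, 329 and 299 counts against 81, 99 and 87, a log2 fold change of -1.94. NALF1, a partner of the sodium leak channel NALCN and not on the list, fell with a log2 fold change of -1.61.

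PCDH8, a protocadherin, went the other way. It had 42, 46 and 35 counts in control and 261, 240 and 257 in OC2-OE, a rise from 2.38 ± 0.32 to 13.9 ± 0.24 CPM (SD, n = 3), which is on the log2 scale 2.54. Its neighbour CNMD, which encodes the cartilage protein chondromodulin, fell. CNMD had 496, 431 and 413 counts in control and 59, 51 and 56 in OC2-OE, a log2 fold change of -3.09. CNMD and PCDH8 lie next to each other at chr13:52703264-52739820 and chr13:52842889-52848641, so neighbours with changes of this size moved in opposite directions.

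Growth factors, receptors and signalling proteins were lower for 9 (52.9%) and higher for 3 (17.6%) of 17 members, with a median of -0.26. FGF9, a secreted fibroblast growth factor, had 1142, 1001 and 1004 counts in control and 479, 469 and 467 in OC2-OE, a log2 fold change of -1.23. Among receptors, FLT1, a receptor for vascular endothelial growth factor, had 174, 191 and 179 counts against 30, 32 and 42, a log2 fold change of -2.47. KL, which encodes the co-receptor klotho, had 165, 113 and 128 against 23, 19 and 16, a log2 fold change of -2.88. IRS2, an adaptor of insulin and IGF receptors, fell from 136 ± 6.27 to 65.2 ± 3.28 CPM (SD, n = 3; log2 fold change -1.07). FLT1 is also expressed in endothelial cells. Of the 4 endothelial markers, KDR and CDH5 were lower in OC2-OE and PECAM1 and VWF were not, and the part of such cells in the value for FLT1 was not tested.

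LATS2, a kinase of the Hippo pathway that restrains YAP1, was among the 3 that rose. It had 97, 80 and 70 counts in control and 148, 164 and 153 in OC2-OE, a rise from 4.76 ± 0.44 to 8.53 ± 0.88 CPM (SD, n = 3), which is on the log2 scale 0.83 (SE 0.13), with an adjusted p of 5.09e-09 by edgeR's quasi-likelihood test. RASA3 (0.67) and ARHGEF7 (0.27 on the log2 scale) were the others.

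Of the 15 genes on the list of matrix, junctions and epithelium 12 were members, of which 9 were lower and 3 higher. The 3 that rose were the connexin genes GJA3, GJB2 and GJB6, which encode subunits of gap junction channels and stand next to each other near the start of the arm. GJB6 had 2, 2 and 0 counts in control and 24, 17 and 21 in OC2-OE, and GJA3 had 5, 0 and 2 against 11, 24 and 23, so both folds rest on few counts. Both were members only through their OC2-OE counts, and without them 9 of 10 members were lower and 1 higher. GJB2 was better covered, with 159, 145 and 156 counts against 306, 247 and 257, a log2 fold change of 0.73. Among the lower genes, SCEL, which encodes the cornified envelope protein sciellin, had 574, 487 and 435 counts against 140, 126 and 137, a log2 fold change of -1.97. COL4A1 (-0.46) and COL4A2 (-1.07 on the log2 scale), the head-to-head genes of collagen IV chains, fell together.

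Transcription factors and regulators were higher for 6 (27.3%) and lower for 8 (36.4%) of 22 members, with a median of 0.04. The higher share was near the 27.8% of all tested genes, of which 28.7% were lower. CDX2, an intestinal homeobox factor, had 419, 449 and 400 counts in control and 199, 196 and 196 in OC2-OE, a log2 fold change of -1.18. DACH1, a repressor of developmental genes, had 53, 45 and 36 counts against 19, 19 and 13 (log2 fold change -1.47), and ZIC2, a zinc finger factor of the neural tube, had 49, 36 and 29 against 19, 17 and 23 (-1.02). FOXO1, a target of insulin signalling, rose from 6.04 ± 0.77 to 8.74 ± 0.45 CPM (SD, n = 3; log2 fold change 0.54). POU4F1, a factor of sensory neurons, had 308, 319 and 287 counts against 321, 296 and 345, a log2 fold change of -0.01 (SE 0.08). KLF5 had 129, 91 and 102 against 116, 132 and 133, with overlapping groups and a log2 fold change of 0.16 (SE 0.13). Without control replicate 1, FOXO1 (log2 fold change 0.44, adjusted p of 0.00191) and ZIC2 (-0.87, adjusted p of 0.00651) no longer passed the threshold of edgeR's quasi-likelihood test, and ZIC2 did not pass without OC2-OE replicate 1 (-0.96, adjusted p of 0.0028) or 2 (-0.96, adjusted p of 0.00211) either.

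Genes of protein synthesis, folding and quality control were lower for 9 (32.1%) and higher for 5 (17.9%) of 28 members, with a median of -0.18. The lower share was near the 28.7% of all tested genes, and the higher share was below their 27.8%. HSPH1, a large heat shock protein, had 8183, 7483 and 7073 counts in control and 5122, 4551 and 4714 in OC2-OE, a log2 fold change of -0.74. TPT1, a translationally controlled protein and the member with the most counts, had 13453, 12865 and 11645 against 13477, 12302 and 12669. Its level was 735 ± 29.4 and 703 ± 7.31 CPM (SD, n = 3), a difference that missed the threshold (adjusted p of 0.00538, edgeR's quasi-likelihood test). It passed without control replicate 1 (log2 fold change -0.08, adjusted p of 0.000282) or control replicate 3 (-0.09, adjusted p of 0.000397). UPF3A, a factor of nonsense-mediated decay, rose from 13.4 ± 0.46 to 18.9 ± 0.47 CPM.

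Of the 16 members on the list of trafficking, lysosome and membrane 7 were higher and 4 lower (median 0.15), and of the 15 on the list of mitochondria and metabolism 6 were higher and 1 lower (median 0.11). Over all tested genes 27.8% were higher. On the mitochondrial list 8 members were not called, and 7 lay below 0. LAMP1, the major glycoprotein of the lysosomal membrane, had 2176, 1899 and 1773 counts in control and 3529, 3247 and 3421 in OC2-OE, a rise from 113 ± 3.74 to 186 ± 1.98 CPM (SD, n = 3; log2 fold change 0.72). IFT88, a protein of transport in cilia, rose from 22.2 ± 0.85 to 37.1 ± 2.21 CPM and MIPEP, a mitochondrial peptidase, from 23.3 ± 0.65 to 40.05 ± 1.91 CPM (SD, n = 3). SLC15A1, a peptide transporter, had 50, 38 and 41 counts against 154, 180 and 171, a log2 fold change of 1.89. SLC7A1, a transporter of cationic amino acids with high counts, rose by 0.41 on the log2 scale. RAP2A, a small GTPase, is on the first list and fell from 152 ± 3.03 to 56.8 ± 1.82 CPM (SD, n = 3; log2 fold change -1.43).

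Near the end of the arm, in 13q34, 8 of 28 members were higher and 8 lower (28.6% each), with a median log2 fold change of -0.00066. Both shares were near those of all tested genes (27.8% and 28.7%). F10, with 27 counts in control and 96 in OC2-OE, was a member mainly through OC2-OE. Without it 7 of 27 were higher and 8 lower, with a median of -0.0054. The run IRS2, COL4A1, COL4A2 and RAB20 was lower throughout. The coagulation factor genes F7 and F10, neighbours on the same strand, moved apart. F7 had 59, 46 and 31 counts in control and 26, 16 and 23 in OC2-OE, a log2 fold change of -1.14, while F10 had 7, 8 and 12 against 38, 28 and 30, a log2 fold change of 1.73. F7 was not called without control replicate 1 (log2 fold change -0.97, adjusted p of 0.00119, edgeR's quasi-likelihood test). The noncoding transcript PRECSIT rose, with 108, 109 and 83 counts against 359, 291 and 294 and a log2 fold change of 1.57.

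The largest rise on the chromosome was that of CPB2, which encodes a carboxypeptidase of plasma that slows the breakdown of fibrin. It had 1, 1 and 0 counts in control and 137, 132 and 120 in OC2-OE, so CPB2 was a member only through its OC2-OE counts. The ratio of the normalized counts was 184, with a 95% counting interval from 50.5 to 1522, which covers counting error only. Its level in OC2-OE was 7.12 ± 0.52 CPM (SD, n = 3). The gene that overlaps it on the opposite strand, CPB2-AS1, had 1591, 1280 and 1307 counts in control and 701, 592 and 713 in OC2-OE, a log2 fold change of -1.14. CPB2-AS1 overlaps CPB2 by 51848 bases and LCP1 by 35460, and its counts are for the whole gene. As whole genes CPB2 and CPB2-AS1 thus changed in opposite directions, and the reads within their overlap were not compared. The printed stretch before the start of CPB2 holds 1 match to ATCAAT. Such matches stood before 5 of 50 members called higher and 9 of 102 not called, and a part of the match in the rise was not tested.

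At the low end of the counts, the antisense gene GPC5-AS1, the microRNA host MIR4500HG and ENSG00000287996, which has no type in the annotation used, had large differences that rest on few reads. GPC5-AS1 had 46, 20 and 25 counts in control and 1, 2 and 4 in OC2-OE, and MIR4500HG, which overlaps the start of SLITRK5 on the opposite strand, had 30, 13 and 24 against 5, 1 and 4. ENSG00000287996 had 61, 47 and 39 counts against 14, 13 and 13. All 3 were called lower. They led their bins of 10 Mb by the size of their change. GPC5-AS1 and MIR4500HG were members mainly through their control counts, so their falls are tied to their membership.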

How the data were processed

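RNA-Seq was performed on 6 stranded poly(A) libraries, 3 per group. Per the submitters' processing notes, FastQC 0.11.8 and STAR 2.7.9a were used. The authors counted read pairs on the exons of GENCODE release 42 genes (GRCh38) with featureCounts 1.6.0, using the strand, and deposited raw counts per gene. These counts are not normalized. The notes also name edgeR and limma, and for normalization the methods point to other published work, whose output was not used here.

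Counts were analysed in R 4.3.3 with edgeR 4.0.16 (TMM normalization, filterByExpr, quasi-likelihood test with robust dispersion), over all 17307 genes kept, with Benjamini-Hochberg adjustment and a threshold of 0.001. SEs were taken as the size of the log2 fold change over the root of the F statistic, and CPM (counts scaled to a common size of library) used TMM library sizes. Depth limits genes of few counts, and intervals cover counting error only. Symbols came from a table of identifiers, gene types from GENCODE release 29, which lacks types for some genes, and sequences from RefSeq (GRCh38.p14). Of the members, 285 had a symbol.

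The members and the gene lists were chosen with earlier results of these data known. The genes named are, among called members with separate groups and a mean level of 3 or more on the log2 CPM scale, the 10 largest rises and 10 largest falls. With no limit on level, they are also the 3 largest called changes of each of 10 lists and the largest called change in each bin and, whatever their values, the 5 members with the most counts and 10 genes chosen by name. Other genes were named as members of runs, pairs or lists and were chosen after their values were seen. The test was tried on simulated data of OC2-OE against control over 17039 genes: 167 of 197 genes changed by 2-fold (84.8%) were recovered, 0 in the wrong direction, with 0 calls among unchanged genes. Every simulated gene had the same dispersion, and only these 197 tested genes were changed, whereas 56.5% of genes were called in the data. The trial therefore does not measure false calls or normalization under changes this widespread. The alternatives were other normalizations, filters, thresholds and bin widths, limma 3.58.1 voom, DESeq2 1.42.0, the replicate number as a block, leaving out each library, and subsets of the members. Some genes are not reported here.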

Additional observations from a re-analysis of the deposited data

How the results depend on the processing

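The median of the members minus that of the other autosomes, -0.13 on the log2 scale, stayed below 0 in each alternative run. Library size only and upper-quartile normalization moved the median of the members to -0.0695 and -0.0775 and that of the other autosomes to 0.0577 and 0.0498. Without the cell division list the median was -0.0850 and the difference -0.0922. With no filter on low counts the other autosomes included genes of few counts, so their median was -0.0553 and the difference -0.0611, and members were lower more often by 19.6 and higher more often by 6.37 percentage points, against 5.52 and -7.40 in the report. With those autosomes limited to genes of at least 60 counts, chosen after seeing the data, the values were 5.80 and -7.08 percentage points and a difference of -0.13. A minimum log2 fold change of 1 in size left 65 called members, 18 higher and 47 lower, and a share higher of -2.42 percentage points against the other autosomes. Without the 3 members with the most counts the shares were 0.964% and 0.904%.

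Leaving out each library in turn gave 153 to 164 called members, 56 to 60 higher and 95 to 105 lower, a median from -0.13 to -0.10 and a difference from -0.14 to -0.11. The replicate numbers did not pair the libraries (correlations of -0.0033, 0.020 and 0.015), and the replicate block gave 167 calls, 62 higher and 105 lower. Over 817 values for the 55 named genes, 7 lost and 2 gained a call. FOXO1 and ZIC2 also lost it with DESeq2 (adjusted p of 0.00117 and 0.00423, with ranges over the alternatives from 6.74e-06 to 0.00191 and from 0.000141 to 0.00651). For F7 the range was 4.2e-06 to 0.00119 and for TPT1 0.000282 to 0.564. POU4F1, not called, changed sign in 5. The median of the bin from 40 to 50 Mb changed sign in 5 of 15 alternatives (-0.02 to 0.05), and no other bin of 10 Mb did. Depth limits genes under 1 CPM.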
